A study of Mus musculus with 15 samples.

Results

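The RNA held by tagged ribosomes in the adult mouse cerebellum at P56 was set against that of the newborn at P0, with 3 arrays at each age (6 of the 15 arrays of the series, which also holds P7, P15 and P21, in days after birth). The arrays were chosen by the age in their labels, and every probe set was compared. All mice carried the transgene Tg(Pcp2-L10a-Egfp), in which the Purkinje cell promoter Pcp2 drives ribosomal protein L10a fused to a green fluorescent tag, and no other allele or treatment is given for either age. Cerebella were pooled, tagged ribosomes were captured from the homogenate with antibodies to the tag, and their RNA was hybridised to Affymetrix arrays. Unpurified RNA was not used here, so a value is a signal in the captured RNA and not an enrichment over the tissue. The question is how the RNA on these ribosomes differs between birth, when Purkinje cells have not yet grown a mature dendrite tree, and adulthood, and which functions beyond the largest single changes take part. The labels do not state whether replicate arrays at one age used different pooled animals, and otherwise each p-value measures only the spread between arrays, which may be technical.

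Purkinje cells are the output neurons of the cerebellar cortex. After birth they settle into a single layer, extend a dendrite tree that receives granule cell input, and begin to fire steadily at a high rate. Such firing makes heavy demands on ion pumps and mitochondria, while the genes of migration, axon growth and adhesion belong to the earlier phase.

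Values are log2 signals, and a change is P56 minus P0 on that scale, so a change of 1 is a doubling. A probe set was called where limma gave a Benjamini-Hochberg adjusted p under 0.05 over all 22092 probe sets. Of these, 16647 (75.4%) were called, 8855 higher at P56 (40.1%) and 7792 lower (35.3%), and 2423 (11.0%) were higher and 3535 (16.0%) lower by at least 1. The 3 arrays of one age did not overlap those of the other in 74.7% of probe sets. With a probe set per gene, 40.5% of 19500 genes were higher, 34.7% lower, 10.9% higher by at least 1 and 15.7% lower by at least 1. These shares are the background for every count below: a list with 11% of its members up by at least 1 does not stand apart from the array. List counts by at least 1 are on the deposited scale. Array medians were 7.91 to 7.93 at P0 and 7.59 to 7.60 at P56. Taken over the whole array, the median change was 0.085 as deposited but 0.41 once each array's median was set to 0, so a list median or a single change near 0 has no direction that holds under both. Of the called probe sets 53.2% were higher as deposited and 70.2% under the second scaling.

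Pcp2 itself read 8.62, 8.49 and 8.50 at P0 and 13.67, 13.75 and 13.69 at P56, and Rpl10a, the mouse's own gene for L10a, read 12.70, 12.71 and 12.66 at P0 and 12.54, 12.51 and 12.56 at P56. Rpl10a changed by −0.15, SE 0.06 as deposited and by 0.17 with array medians set to 0, so it has no settled direction; leaving out P0 replicate 1 (−0.15), P0 replicate 2 (−0.14) or P56 replicate 2 (−0.14) ended its call as well. Of 15 measured Purkinje cell markers 14 rose and 1 fell, and their mean over the list was 9.99 to 10.03 per array at P0 and 12.98 to 13.02 at P56. Markers of other cells were read on the same arrays. Granule cell markers rose in 10 of 12 cases (list means of 8.99 to 9.02 at P0 and 10.59 to 10.83 at P56). Oligodendrocyte lineage markers rose in 6 of 12 and fell in 5 (8.41 to 8.52 and 8.83 to 8.89). Ermn, Mobp and Mag had the largest rises and Pdgfra, Olig2 and Cspg4 the largest falls, so the mean hides a split. Markers of endothelial and mural cells fell in 13 of 13 cases (8.86 to 8.90 and 6.44 to 6.62), of cerebellar interneurons in 12 of 12 (10.35 to 10.36 and 7.93 to 8.19), of meninges and choroid plexus in 11 of 12 (9.28 to 9.32 and 7.48 to 7.84), of microglia in 11 of 12 (7.77 to 7.79 and 6.46 to 6.57), of dividing cells in 9 of 9 (8.32 to 8.41 and 6.002 to 6.04), and of astrocytes and Bergmann glia in 7 of 11 (10.18 to 10.22 and 9.39 to 9.54). The other 4 astrocyte and Bergmann glia markers rose, among them S100b, Hopx and Gdf10. With array medians set to 0, 7 of the 12 microglia markers were called lower, and leaving out the dimmest 50% of probe sets removed the microglia list from the test. Both measured red blood cell genes fell (8.65 to 8.79 and 6.66 to 6.76). These markers move with every list below that rose or fell on balance, and their part in those changes was not tested. In RNA pulled from a mixed tissue, fewer cells of a type and less RNA per cell cannot be told apart, nor can the amount of tagged ribosome, which was not measured at either age.

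The functions described here are 41 lists of 1577 genes, of which 1437 were measured. In the chart of list shares, circadian clock genes stand at the upper end with 61.1% of members up by at least 1, and nutrient transporters at the lower end with 62.9% down by at least 1.

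**Figure D1:**
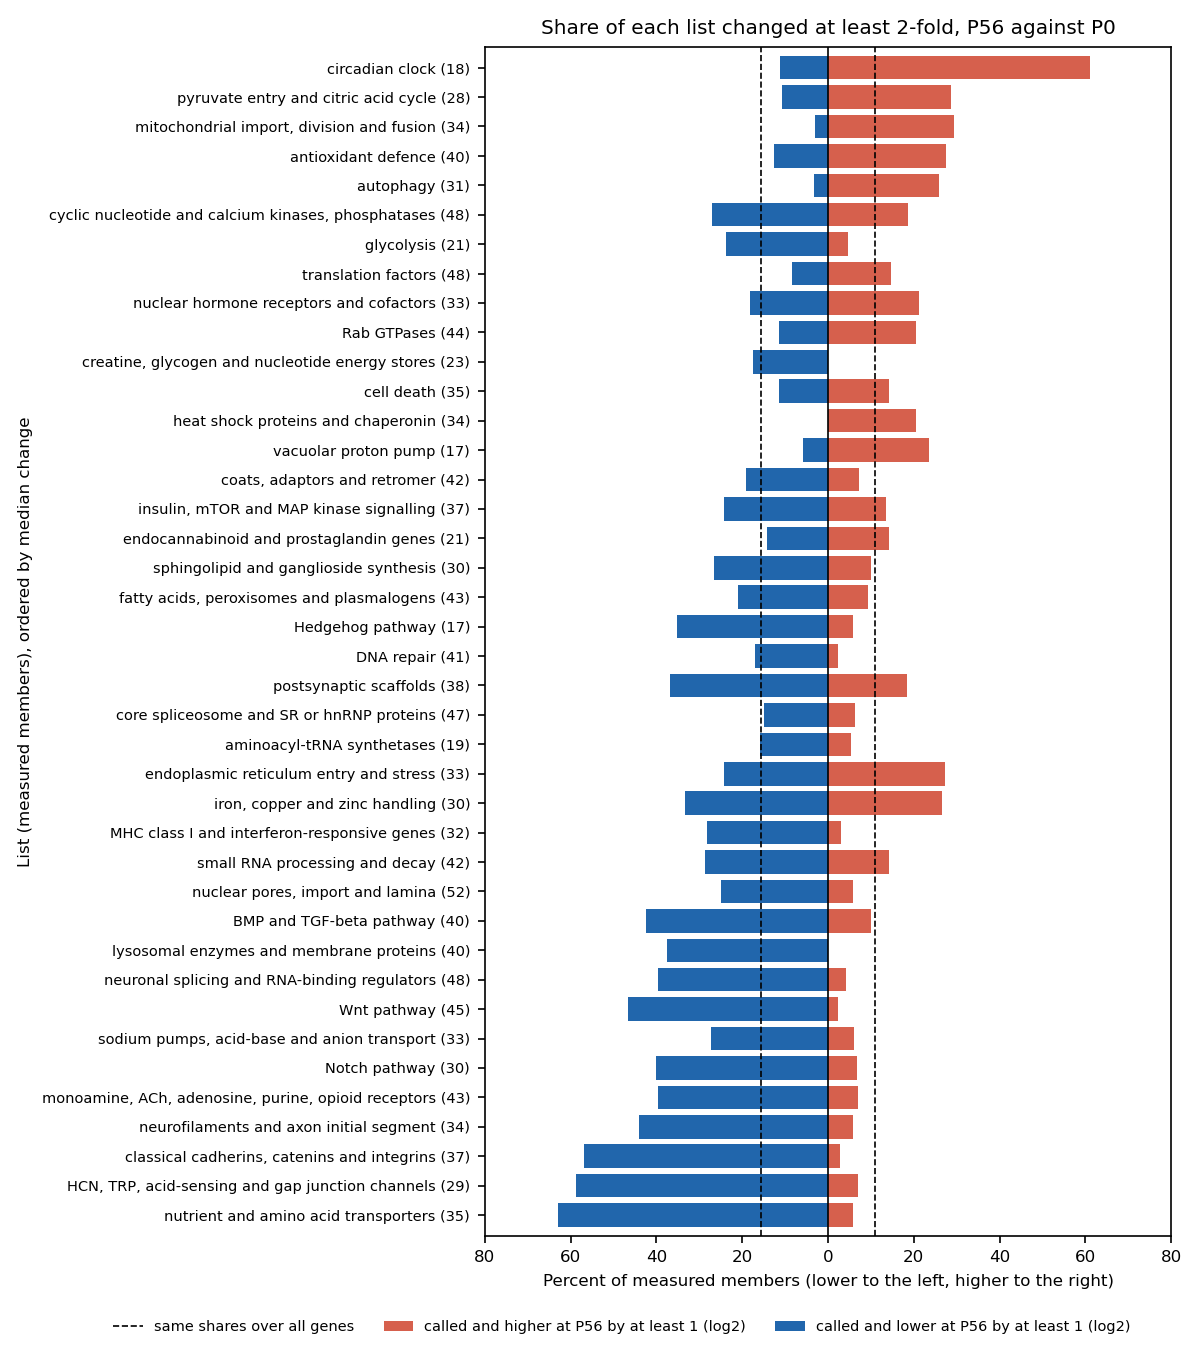
Each bar gives the percent of a list's measured genes (number in brackets) that were called and higher at P56 by at least 1 (orange, to the right) or lower by at least 1 (blue, to the left) on the log2 scale; dashed lines mark the same shares over all 19500 genes (10.9% and 15.7%). Clock, citric acid cycle, mitochondrial import and antioxidant lists lie at the upper end by median change, and channels, adhesion and nutrient transporters at the lower end.

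Genes of the circadian clock rose together. The clock is a loop in which the factors CLOCK and ARNTL drive genes of their own repressors, among them Per, Cry and Nr1d1, as well as output factors such as Dbp, Tef and Hlf, through a DNA element called the E-box (CACGTG). Of 18 measured clock genes, 15 rose and 3 fell, 11 rose by at least 1, and the median change was 1.55. Dbp, an output factor, read 7.84, 7.80 and 8.10 at P0 and 11.21, 11.55 and 11.55 at P56 (3.52, SE 0.11, limma adjusted p 5.84e-15). Nr1d1, a repressor of Arntl, read 9.58, 9.57 and 9.68 at P0 and 11.99, 12.08 and 12.23 at P56 (2.49, SE 0.07, limma adjusted p 3.06e-15). Hlf, a relative of Dbp, read 9.14, 9.39 and 9.16 at P0 and 11.59, 11.60 and 11.53 at P56 (2.35, SE 0.07, limma adjusted p 1.14e-14). In all these genes every P56 array lay above every P0 array by a wide margin. The loop's activator Arntl read 9.08, 9.19 and 8.98 at P0 and 10.60, 10.69 and 10.64 at P56 (1.56, SE 0.06). Its partner Clock rose less (0.42, SE 0.09). Among the repressors, Cry1 rose by 1.64, Ciart by 2.03, Bhlhe40 by 1.98, Nr1d2 by 1.49, Cry2 by 0.89, Per1 by 0.46 and Per3 by 0.40. Nfil3, which competes with Dbp for its sites, rose by 1.53. The activating receptor Rora rose by 1.99, while its relative Rorb fell by 1.82 (P0 arrays 8.85 to 8.96, P56 arrays 6.91 to 7.23). The kinase gene Csnk1e, whose product marks PER proteins for decay, read 12.27, 12.22 and 12.29 at P0 and 10.63, 10.69 and 10.81 at P56 (−1.55, SE 0.06). Its relative Csnk1d changed by −0.23, SE 0.06 as deposited and by 0.094 with array medians set to 0.

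For every clock gene that rose except Cry1, the P7 mean lay closer to the P56 mean than to the P0 mean. Dbp averaged 11.48 at P7, 11.77 at P15, 11.50 at P21 and 11.44 at P56, and Nr1d1 11.79 at P7. Cry1 had a later course, at 9.03, 9.13 and 9.20 before 10.05 at P56. Per3 and Ciart were higher between the ends, with Per3 at 8.60 and Ciart at 10.07 at P21 and 7.74 and 9.46 at P56. The time of day at which cerebella were collected is not given for any age, so a difference in it cannot be told apart from age for these genes.

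**Figure D2:**
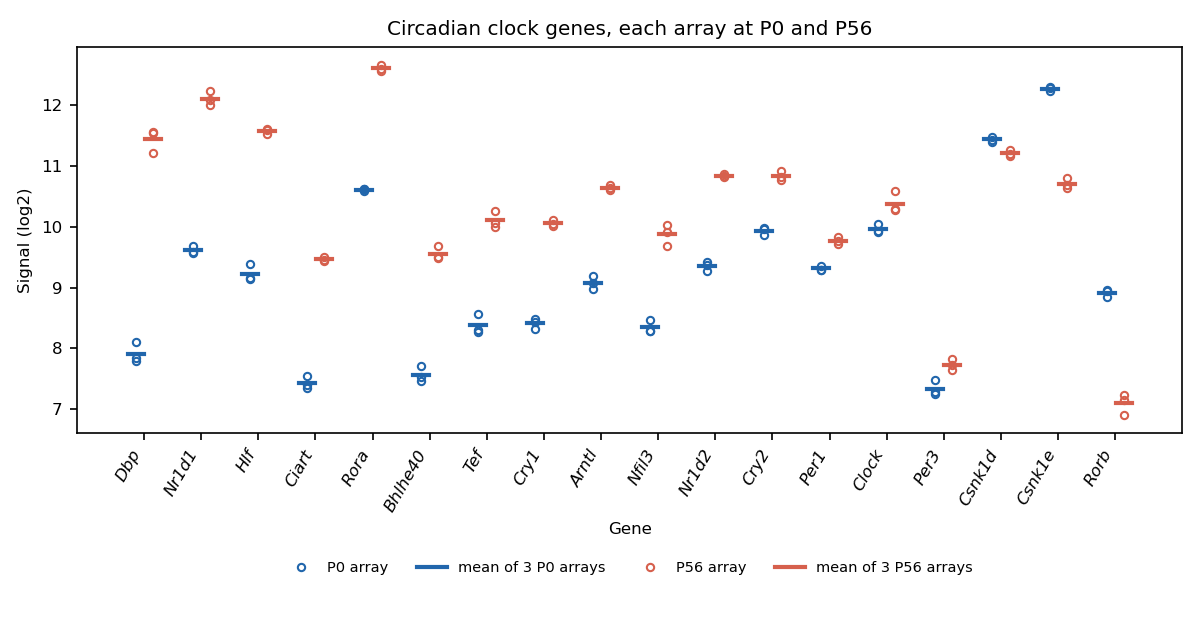
Log2 signal of the 18 measured clock genes on each of 3 arrays at P0 (blue circles) and P56 (orange circles), with the mean of each age as a bar, ordered by change. From Dbp (3.52) to Per3 (0.40) the P56 arrays lie above the P0 arrays, and for Csnk1d, Csnk1e and Rorb they lie below.

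To show what the E-box looks like in genes that moved here, the 250 bases before the annotated start of Ciart and Per1 are given from RefSeq (build GRCm38.p6), 5′ to 3′ on the gene's strand, with each CACGTG in capitals. The window of Ciart lies at chr3:95882229-95882478 on the minus strand and that of Per1 at chr11:69098699-69098948 on the plus strand.
Ciart: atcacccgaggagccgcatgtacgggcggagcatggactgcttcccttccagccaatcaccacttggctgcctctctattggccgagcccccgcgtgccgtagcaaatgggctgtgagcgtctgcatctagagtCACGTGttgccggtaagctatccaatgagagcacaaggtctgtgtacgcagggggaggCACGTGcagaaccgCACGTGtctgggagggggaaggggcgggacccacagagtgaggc
Per1: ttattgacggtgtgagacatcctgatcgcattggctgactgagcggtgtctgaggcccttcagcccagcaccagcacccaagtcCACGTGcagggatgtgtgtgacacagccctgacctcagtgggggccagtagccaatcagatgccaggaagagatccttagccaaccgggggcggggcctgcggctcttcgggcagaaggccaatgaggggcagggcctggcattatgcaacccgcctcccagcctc
Ciart holds 3 copies, the farthest 116 bases before the start, and Per1 holds 1. The search for CACGTG, which reads the same on both strands, found it in 4 of 16 clock genes with a promoter in the table (25%: Per1, Cry1, Tef and Ciart, all called higher). It was found in 8.14% of the 15302 measured genes with a promoter. The median change was 1.68 for the 4 clock genes with the letters and 1.51 for the others, and a match of letters is a description, not a binding site.

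Mitochondrial genes outside the respiratory chain were higher on balance as well. Proteins made in the cytosol enter mitochondria through TOM and TIM complexes. Of 34 genes of import, division and fusion 30 rose and 2 fell, with a median of 0.67, and 10 rose by at least 1 (29.4%). Tomm7, a small part of the outer membrane pore, read 9.57, 9.43 and 9.44 at P0 and 12.35, 12.26 and 12.14 at P56 (2.77, SE 0.07, limma adjusted p 5.86e-16). Timm10 and Timm13, chaperones that carry proteins across the space between the membranes, rose by 2.44, SE 0.09 and by 2.17, SE 0.11, with no overlap between ages. The fusion protein gene Mfn1 fell from 10.22 to 9.17 (−1.05, SE 0.07). Nrf1, an activator of mitochondrial genes, fell as deposited (−0.41, SE 0.08). It was not called with array medians set to 0 (−0.092) or under quantile normalization (−0.14). Ppargc1a, the coactivator of mitochondrial growth, rose by 0.59, SE 0.07.

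Esrra, the nuclear receptor that works with that coactivator on genes of energy supply, had a larger rise than any other of the 33 measured nuclear receptors and cofactors. It read 7.18, 7.53 and 7.96 at P0 and 11.42, 11.31 and 11.08 at P56 (3.72, SE 0.15, limma adjusted p 2.65e-13), and the P0 arrays were more scattered than the P56 arrays. The progesterone receptor Pgr (2.40, SE 0.12) and the fatty acid receptor Ppard (2.37, SE 0.08) rose too. Rxrg, a retinoid X receptor, fell from 9.26 to 5.69, where all 3 arrays lay under their own lower quartile and so were dim, that is, not shown to be above background. Crabp1, which binds retinoic acid, fell by 3.20 (10.93, 10.85 and 10.93 at P0 and 7.76, 7.60 and 7.76 at P56). On the whole the receptor list was split, with 17 up and 14 down (median 0.16), of which 7 and 6 moved by at least 1.

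In the citric acid cycle and the entry of pyruvate, 17 of 28 genes rose and 8 fell (median 0.72), and 28.6% rose by at least 1. Dld, an enzyme shared by the pyruvate and oxoglutarate dehydrogenase complexes, read 9.61, 9.54 and 9.41 at P0 and 11.07, 11.01 and 11.28 at P56 (1.60, SE 0.08, limma adjusted p 3.33e-12). Succinyl-CoA synthetase joins a common alpha subunit with either of a pair of beta subunits. The alpha gene Suclg1 rose by 1.87, SE 0.09 and Sucla2, the beta subunit that forms ATP, by 1.84, SE 0.07. Suclg2, the beta subunit that forms GTP, went the other way, with 8.68, 8.69 and 8.61 at P0 and 7.22, 7.35 and 7.39 at P56 (−1.35, SE 0.08). Idh2, which makes NADPH in mitochondria, fell by 1.86 (10.50, 10.50 and 10.61 at P0 and 8.71, 8.91 and 8.42 at P56). Pdk4, an inhibitor of pyruvate dehydrogenase, fell by 1.12 between the ends but stood at 8.70 at P21.

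Of 21 genes of glycolysis 11 rose and 7 fell (median 0.24), but 1 rose by at least 1 (4.76%) and 5 fell by as much (23.8%). Ldhb, the lactate dehydrogenase subunit of oxidative tissue, rose by 1.01, SE 0.09, the neuronal enolase Eno2 by 0.89, SE 0.07 and the pyruvate kinase Pkm by 0.86, SE 0.07. Some fuel transporters fell. Slc2a1, a glucose transporter known from the blood-brain barrier and from glia, read 11.40, 11.40 and 11.45 at P0 and 9.63, 9.46 and 9.54 at P56 (−1.87, SE 0.07, limma adjusted p 1.96e-13), beside endothelial markers that fell in 13 of 13 cases. Slc16a7, a lactate and pyruvate transporter of neurons, read 9.18, 9.25 and 9.21 at P0 and 6.94, 7.04 and 7.46 at P56 (−2.07, SE 0.11). The phosphofructokinase Pfkp fell by 1.27.

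Among genes of energy stores, 10 of 23 rose and 9 fell, and none rose by at least 1. The creatine kinase Ckb, which buffers ATP, rose from 12.94 to 13.66, the creatine transporter Slc6a8 by 0.79 and the adenylate kinase Ak1 by 0.87. Prkab1, a subunit of the energy sensor AMPK, read 10.36, 10.30 and 10.35 at P0 and 7.73, 7.72 and 8.06 at P56 (−2.50, SE 0.08, limma adjusted p 2.17e-14). The brain glycogen phosphorylase Pygb fell by 1.64 and the AMP deaminase Ampd2 by 1.61.

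Antioxidant genes rose in 25 of 40 cases and fell in 11 (median 0.29), with 27.5% up by at least 1. Msrb2, which repairs oxidised methionine in mitochondria, read 7.24, 7.27 and 6.94 at P0 and 10.16, 10.12 and 9.99 at P56 (2.94, SE 0.12, limma adjusted p 2.05e-13). The microsomal transferase Mgst3 rose by 2.42, SE 0.08 and Srxn1, which restores peroxiredoxins, by 2.17, SE 0.08. In the other direction, the secreted peroxidase Gpx3 read 9.60, 9.71 and 9.57 at P0 and 6.57, 7.01 and 6.78 at P56 (−2.84, SE 0.10), Hmox1, the enzyme that breaks down haem, fell by 1.46, and Gstm1 by 1.32. Gpx3 and Hmox1 are also made by vessel and immune cells, whose markers fell.

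Metal handling moved both ways, and its majority had no settled direction: 12 genes rose and 16 fell as deposited (median −0.30), against 13 and 13 with array medians set to 0 (median 0.026); 8 rose and 10 fell by at least 1. The copper chaperone Atox1, which brings copper to the secretory pathway, read 8.60, 8.49 and 8.59 at P0 and 11.20, 10.98 and 10.88 at P56 (2.46, SE 0.10, limma adjusted p 4.63e-13). Cox17, a chaperone that brings it to cytochrome oxidase, stood at 8.67, 9.37 and 9.10 at P7, P15 and P21 and then at 12.09 at P56, after a start of 6.05 at P0. Trf, the iron carrier transferrin, which oligodendrocytes make in brain, rose by 2.29, SE 0.10. An exporter and an oxidase of iron fell: ferroportin, Slc40a1, read 7.90, 8.08 and 8.21 at P0 and 6.16, 6.23 and 5.79 at P56 (−2.004, SE 0.12) and ceruloplasmin, Cp, 8.49, 8.44 and 8.43 at P0 and 5.91, 6.31 and 6.38 at P56 (−2.26, SE 0.10). Slc30a3, which loads zinc into synaptic vesicles, fell by 1.90.

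**Figure D3:**
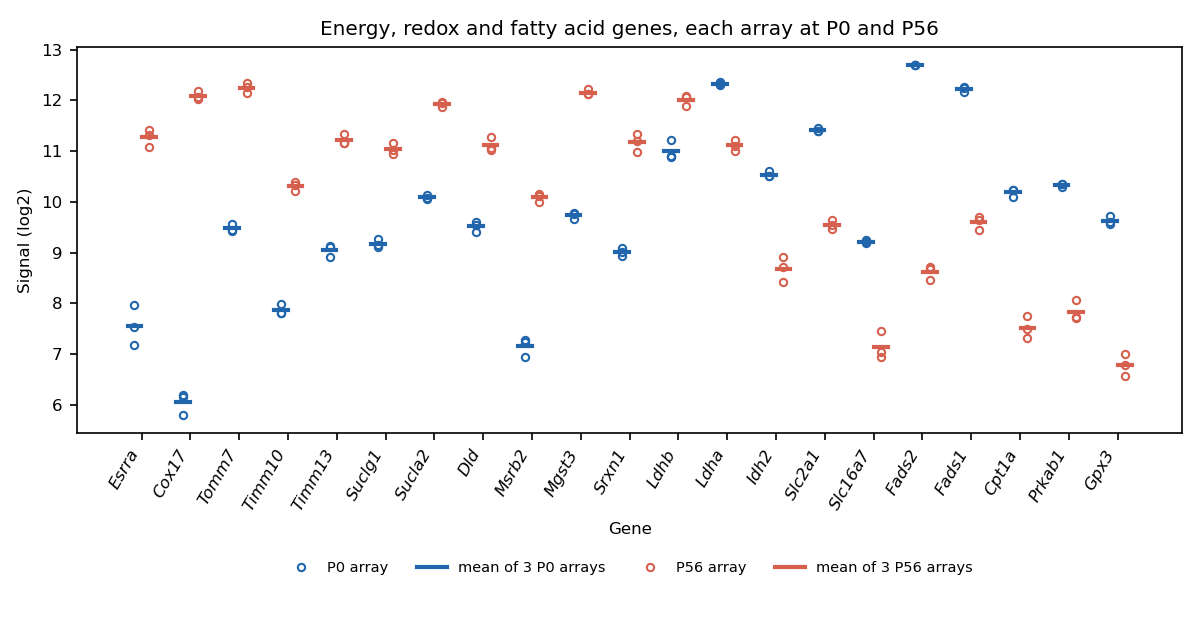
Log2 signal on each of 3 arrays at P0 (blue circles) and P56 (orange circles), with the mean of each age as a bar, for 21 genes of energy supply, redox and fatty acid enzymes named in the text. The P56 arrays lie above the P0 arrays from Esrra to Ldhb and below them from Ldha to Gpx3, and the ages overlap in none of the 21 genes.

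Fatty acid enzymes included some of the steepest falls among the lists. Fads1 and Fads2, the desaturases that make long polyunsaturated fatty acids, read 12.24, 12.27 and 12.16 at P0 and 9.70, 9.45 and 9.64 at P56 (−2.63, SE 0.08, limma adjusted p 9.86e-15) and 12.70, 12.69 and 12.70 at P0 and 8.68, 8.46 and 8.73 at P56 (−4.07, SE 0.10, limma adjusted p 4.32e-16). Fads2 had fallen to 10.33 by P7, and the ages did not overlap for either gene. Cpt1a, which admits fatty acids to mitochondria, fell by 2.67 (10.24, 10.23 and 10.10 at P0 and 7.50, 7.74 and 7.32 at P56). The peroxisome genes Pex7 (1.99, SE 0.09) and Pex13 (1.83, SE 0.08), needed for import into peroxisomes, rose, as did Abcd2 (1.71, SE 0.08), a transporter of their membrane. The list had no settled majority: 16 of 43 rose and 21 fell as deposited, 18 and 18 did so under quantile normalization, and 21 rose and 13 fell with array medians set to 0. Past a change of 1 there were 4 rises and 9 falls.

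Sphingolipid genes were also mixed, with 13 of 30 up and 14 down as deposited and 16 up and 11 down with array medians set to 0; 3 rose and 8 fell by at least 1. St8sia5, a sialyltransferase that makes complex gangliosides, read 8.75, 8.72 and 8.59 at P0 and 11.98, 11.93 and 12.002 at P56 (3.28, SE 0.07, limma adjusted p 7.65e-17), and had reached 12.13 at P7. Smpd3, a neutral sphingomyelinase, read 10.48, 10.63 and 10.57 at P0 and 7.65, 7.53 and 7.57 at P56 (−2.98, SE 0.08, limma adjusted p 2.19e-15). The ceramide synthase genes measured with a called fall were Cers2 (−2.04), Cers5 (−2.01), Cers6 (−1.81) and Cers4 (−1.44). Ugt8a (1.95, SE 0.10) and Fa2h (1.47, SE 0.09), enzymes of myelin lipids in oligodendrocytes, rose. Fa2h stood at 10.61 at P21 and 8.53 at P56, beside an oligodendrocyte marker mean of 9.92 at P21 and 8.87 at P56.

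Protein breakdown was not uniform. Lysosomal genes fell on balance: 30 of 40 fell, 6 rose, 15 fell by at least 1 (37.5%) and 0 rose by as much (median −0.62). Npc1, which exports cholesterol from lysosomes, read 10.61, 10.55 and 10.64 at P0 and 8.42, 8.63 and 8.92 at P56 (−1.94, SE 0.09, limma adjusted p 3.42e-12). Cd63, a membrane protein of lysosomes and exosomes, fell by 1.90 and Ids, a sulfatase, by 1.72. The rises were small: Tmem106b (0.51, SE 0.07), Gla (0.49, SE 0.12), the galactosidase whose loss causes Fabry disease, and Sgsh (0.47, SE 0.09). Gla stood higher between the ends, at 10.06 at P21. Markers of microglia, cells rich in lysosomes, fell in 11 of 12 cases as deposited and in 7 with array medians set to 0.

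The factor TFEB is known to drive lysosomal genes through an element that includes TCACGTGA. These letters are shown in the 250 bases before the start of Ctsd (chr7:142387828-142388077, minus strand) and of Gla (chrX:134601006-134601255, minus strand), a lysosomal gene that fell and one that rose, from RefSeq (GRCm38.p6) with TCACGTGA in capitals.
Ctsd: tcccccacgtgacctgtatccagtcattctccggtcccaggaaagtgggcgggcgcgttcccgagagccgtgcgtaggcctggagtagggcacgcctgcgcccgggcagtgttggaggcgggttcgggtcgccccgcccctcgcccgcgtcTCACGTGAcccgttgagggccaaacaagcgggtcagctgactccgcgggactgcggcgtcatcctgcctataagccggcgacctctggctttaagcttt
Gla: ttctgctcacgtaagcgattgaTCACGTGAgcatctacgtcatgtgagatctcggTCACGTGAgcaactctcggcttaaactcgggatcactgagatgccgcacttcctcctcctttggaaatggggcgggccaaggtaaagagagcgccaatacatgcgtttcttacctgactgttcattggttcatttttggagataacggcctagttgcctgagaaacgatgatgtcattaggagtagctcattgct
TCACGTGA, which reads the same on both strands and contains CACGTG, was found in 5 of 35 lysosomal genes with a promoter in the table (14.3%), in 0 of 16 clock genes and in 1.25% of the 15302 genes. Its 5 lysosomal bearers were Ctsa (−1.29), Ctsd (−0.35), Mcoln1 (−1.38), Cln3 (−0.16) and Gla (0.49), of which 4 fell and 1 rose. The broader CACGTG was found in 12 of the 35 (34.3%), of which 2 rose and 8 fell, whereas the 4 clock genes with it all rose. The whole lists leaned the same ways, with 30 of 40 lysosomal genes lower and 15 of 18 clock genes higher. The median change was −0.38 for the lysosomal genes with CACGTG and −0.63 for the others. Tfeb itself was not called (0.20, SE 0.11).

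Autophagy genes rose in 18 of 31 cases and fell in 8 (median 0.28), with 25.8% up by at least 1 and 1 gene down by as much. Atg4c, a protease that prepares the ATG8 proteins, read 7.91, 8.16 and 8.03 at P0 and 10.20, 10.62 and 10.33 at P56 (2.35, SE 0.11, limma adjusted p 2.67e-12). Atg10 (1.56, SE 0.09) and Atg5 (1.52, SE 0.07), of the conjugation system, rose. Atg4a, a relative of Atg4c, fell by 1.21 and the cargo adaptor Sqstm1 by 0.95. The vacuolar proton pump, which acidifies lysosomes and synaptic vesicles, had 8 of 17 genes up and 7 down as deposited, 7 and 8 under quantile normalization, and 4 up and 1 down by at least 1. Its small subunits Atp6v1g1 (1.39, SE 0.07) and Atp6v1f (1.26, SE 0.07) rose and the membrane subunit Atp6v0a1 fell (−1.02, SE 0.09).

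Of 34 heat shock and chaperonin genes 7 rose by at least 1 (20.6%) and 0 fell by as much, while 16 rose and 12 fell in all, or 15 and 15 under quantile normalization. Hspe1, the mitochondrial co-chaperonin, read 10.94, 10.92 and 10.73 at P0 and 13.02, 12.97 and 12.92 at P56 (2.11, SE 0.09, limma adjusted p 3.92e-13), and Hspa4l rose by 1.97, SE 0.06. Hspb6 rose by 1.55, SE 0.12, and the cytosolic chaperonin subunit Cct4 fell by 0.92. Genes of the endoplasmic reticulum spread both ways, with 27.3% up and 24.2% down by at least 1. Their majority turned from 15 up and 17 down as deposited to 16 up and 15 down with array medians set to 0. Ddit3, a factor induced by unfolded proteins, read 6.71, 7.15 and 6.90 at P0 and 9.86, 10.003 and 9.81 at P56 (2.97, SE 0.10, limma adjusted p 1.39e-14), while Ern1, a sensor of the same response, read 8.68, 8.66 and 8.64 at P0 and 6.65, 6.87 and 6.98 at P56 (−1.83, SE 0.08, limma adjusted p 3.28e-13). Sec61b rose (2.51, SE 0.12) and Sec61a2 fell (−1.89, SE 0.10), both parts of the protein entry channel.

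Regulators of neuronal splicing fell on balance. Of 48 such RNA-binding proteins 34 fell and 8 rose (median −0.63), and 39.6% fell by at least 1. Elavl2, a binder of neuronal RNAs, read 10.34, 10.35 and 10.20 at P0 and 7.20, 7.02 and 7.40 at P56 (−3.09, SE 0.09, limma adjusted p 2.00e-15), Celf5 11.50, 11.42 and 11.46 at P0 and 8.68, 8.59 and 8.66 at P56 (−2.82, SE 0.07, limma adjusted p 5.15e-16), and Msi1, a marker of neural stem cells, 11.52, 11.42 and 11.41 at P0 and 8.72, 8.54 and 8.76 at P56 (−2.78, SE 0.08, limma adjusted p 4.96e-15). Mbnl2 (1.68, SE 0.06) and Mbnl1 (0.98, SE 0.07), which shift splicing towards adult forms, rose, as did Cpeb1 (2.23, SE 0.08), which controls translation of dendritic RNAs. Mbnl2 had reached 12.60 by P7.

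In the core spliceosome 14.9% of 47 genes were down by at least 1, near the background of 15.7%, and its majority turned from 11 up and 27 down as deposited to 19 up and 16 down with array medians set to 0. Within the SF3B complex the small Sf3b5 (1.80, SE 0.07) and Sf3b2 (1.46, SE 0.07) rose and Sf3b3 (−1.32, SE 0.07) fell. Srsf5 read 9.40, 9.45 and 9.35 at P0 and 10.87, 10.85 and 10.93 at P56, and its level at P21 was 9.51, so the rise lay after P21. For small RNA processing and decay, 27 of 42 genes fell against 13 that rose, with a median of −0.43, 12 of the falls and 6 of the rises reaching 1. Among them were the decapping scaffold Edc4 (−2.11, SE 0.07), the microRNA effector Tnrc6c (−1.97, SE 0.08) and the exonuclease Xrn1 (−1.78, SE 0.09) down and the deadenylase Cnot8 (1.90, SE 0.08) up. With array medians set to 0, 15 of the 42 genes were called higher and 20 lower (median −0.11).

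Of 48 translation factors 24 rose and 18 fell (median 0.19), 7 and 4 of them by at least 1. Eif5a2 rose (2.19, SE 0.09), as did the helicase Eif4a2 (1.42, SE 0.09). The cap-binding Eif4e rose by 1.56 in the probe set with the highest signal, but the changes of its 3 probe sets ran from 0.091 to 1.56. Subunits of eIF3, Eif3l (−1.71, SE 0.08) and Eif3d (−1.25, SE 0.06), fell, and so did the kinase Eef2k (−1.22, SE 0.07). Of 19 tRNA synthetase genes 7 rose and 11 fell as deposited, and 9 rose and 6 fell with array medians set to 0, while 1 rose and 3 fell by at least 1. Farsa (−1.52), Vars (−1.39) and Cars (−1.26) fell by more than 1 and the complex member Aimp1 rose (1.54).

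At the nuclear envelope, 33 of 52 genes fell and 10 rose (median −0.58), and 25% fell by at least 1. Nup210, a membrane nucleoporin, read 10.48, 10.44 and 10.38 at P0 and 7.53, 7.48 and 7.67 at P56 (−2.88, SE 0.08, limma adjusted p 9.25e-16), the importin Kpna2 10.78, 10.80 and 10.73 at P0 and 8.03, 7.96 and 8.49 at P56 (−2.61, SE 0.10, limma adjusted p 2.24e-13) and Nup205 10.06, 10.13 and 10.16 at P0 and 7.93, 8.02 and 7.97 at P56 (−2.15, SE 0.07, limma adjusted p 1.28e-14). Kpna2, also a gene of dividing cells, was still at 10.93 at P7, and the dividing cell markers were at 8.37 at P0 and 8.25 at P7 on average. The GTPase gene Ran, which has pseudogenes that short probes can read, rose (1.53, SE 0.08). For DNA repair, 9 of 41 genes rose and 26 fell as deposited, with 15 and 16 under array medians set to 0 (median 0.082), and 1 rose and 7 fell by at least 1. Trp53bp1 read 10.31, 10.45 and 10.41 at P0 and 8.17, 8.01 and 7.90 at P56 (−2.36, SE 0.08), Brca2 fell to a dim level, and the base excision polymerase Polb rose (1.05, SE 0.07).

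MicroRNA genes were measured by probe sets on the hairpin, which do not separate the mature microRNA from its precursor or a host transcript. Of 286 such genes 94 rose and 116 fell, but 4 rose and 65 fell by at least 1. Over all genes 10.9% rose and 15.7% fell by as much. Of the 65 microRNA genes, 31 lie in the imprinted Dlk1-Dio3 region, where 38 were measured, and 34 are among the 248 elsewhere. The 34 elsewhere are a smaller share than the 15.7% over all genes, so microRNA genes outside the region did not stand apart by falls. At P56, 48 of the 65 had all arrays under their lower quartile. Mature sequences are given from RefSeq for 6 large falls outside that region and for 2 of the 4 rises. They were chosen after their values were seen and with a chromosome left out, so larger falls may exist. The seed (bases 2 to 8), which pairs with target RNAs, is in capitals.
mmu-miR-181b-5p: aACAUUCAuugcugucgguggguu
mmu-miR-99a-5p: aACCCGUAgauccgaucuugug
mmu-miR-9-5p: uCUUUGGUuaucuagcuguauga
mmu-miR-680: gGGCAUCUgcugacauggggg
mmu-miR-7a-5p: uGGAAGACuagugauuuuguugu
mmu-miR-135a-5p: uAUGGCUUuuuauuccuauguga
mmu-miR-375-5p: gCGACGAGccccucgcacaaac
mmu-miR-142a-3p: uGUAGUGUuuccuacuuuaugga
The seeds printed differ from each other. For Mir375 the source held the 5p strand alone, and which strand of a hairpin is in use was not measured. Mir181b-1 read 9.62, 9.62 and 9.57 at P0 and 4.61, 4.73 and 4.98 at P56 (−4.83, SE 0.11, limma adjusted p 2.59e-16). Mir9-1, of a family known from neural progenitors, read 10.03, 10.08 and 10.12 at P0 and 6.95, 6.73 and 6.82 at P56 (−3.24, SE 0.09, limma adjusted p 9.93e-16) and was alone among these 6 in not being dim at P56. For the other 5 the difference is that of the deposited values, and the size of the fall is not settled. Mir99a (−3.30), Mir680-2 (−3.20), Mir7-1 (−3.16) and Mir135a-2 (−2.92) were low by P7, Mir7-1 for example at 4.95. Mir375 read 6.59, 6.68 and 6.56 at P0 and 8.04, 7.92 and 7.54 at P56 (1.23, SE 0.12), Mir142, known from blood cells, 4.77, 4.73 and 4.72 at P0 and 5.81, 6.26 and 5.71 at P56 (1.18, SE 0.12) and Mir6516 7.42, 7.31 and 7.50 at P0 and 9.87, 8.54 and 8.81 at P56 (1.66, SE 0.22), the last with 1 of its P56 arrays more than 1 above the others. Mir142 was dim at P0 and lay near the lower quartile at P56, so it is not shown to be above background and its rise is not settled.

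The call alone carries little weight for genes without signal. Of 1020 olfactory receptor genes, which the cerebellum is not known to use, 475 were called higher and 14 lower, with a median change of 0.19, and 915 were dim on all arrays of both ages. Vomeronasal receptors were alike (84 of 162 higher, 3 lower). By at least 1, 4 olfactory receptors rose and 2 fell.

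Developmental signals fell on balance. Of 45 Wnt pathway genes 34 fell and 4 rose (median −0.68), and 46.7% fell by at least 1. Tcf7l2, the factor that turns the signal into transcription, read 11.97, 12.05 and 12.01 at P0 and 7.68, 7.70 and 7.75 at P56 (−4.30, SE 0.07, limma adjusted p 1.80e-18). Vangl2, of planar cell polarity, read 11.16, 11.15 and 11.13 at P0 and 7.55, 7.72 and 7.80 at P56 (−3.46, SE 0.08, limma adjusted p 1.31e-16), and the secreted antagonist Sfrp2 10.21, 10.10 and 10.14 at P0 and 6.56, 6.99 and 7.03 at P56 (−3.29, SE 0.10, limma adjusted p 1.08e-14). The ligand Wnt3 rose, with 7.49, 7.43 and 7.45 at P0 and 9.52, 9.49 and 9.55 at P56 (2.06, SE 0.06, limma adjusted p 2.40e-15), and was at 9.46 at P7. In the Notch pathway 21 of 30 genes fell and 6 rose, with a median of −0.76, and 12 fell and 2 rose by at least 1. The receptors Notch1 (−2.46, SE 0.10) and Notch2 (−2.45, SE 0.07) and the coactivator Maml2 (−2.14, SE 0.10) fell, and Numb, an inhibitor of Notch, rose (1.42, SE 0.09), as did the glycosyltransferase Rfng (1.16, SE 0.07).

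Of 17 Hedgehog pathway genes 9 fell and 1 rose, 6 and 1 of them by at least 1, although the list median turned from −0.24 to 0.085 with array medians set to 0. The gene that rose was Shh, the growth signal that Purkinje cells send to granule cell precursors, with 7.97, 7.72 and 7.95 at P0 and 8.97, 9.32 and 9.57 at P56 (1.41, SE 0.12, limma adjusted p 5.94e-09), and it stood at 9.36, 9.40 and 9.21 between. Gli3 (−2.36, SE 0.10), a factor of the receiving cells, and Disp1 (−2.27, SE 0.09) and Disp2 (−2.21, SE 0.09), of which the first releases the ligand from cells, fell, and a second probe set of Disp1 fell by 0.78. In the BMP and TGF-beta pathway 26 of 40 fell and 10 rose (median −0.59), 17 and 4 of them by at least 1, with the ligands Bmp7 (−2.43, SE 0.09) and Bmp6 (−2.23, SE 0.07) and the antagonist Fstl1 (−3.42, SE 0.12) down. Tgfb1 read 8.09, 8.15 and 8.15 at P0 and 10.17, 10.19 and 10.13 at P56 (2.03, SE 0.07), below its P7 mean of 10.83. Gdf11 (1.60, SE 0.06) and Smad9 (1.64, SE 0.08) rose.

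In cell death 16 of 35 genes rose and 13 fell (median 0.044), 5 and 4 of them by at least 1, shares near those of all genes. With the dimmest probe sets left out, 21 genes were tested, of which 9 rose and 10 fell (median −0.20), so the list has no settled majority. The protective Bcl2l1 read 9.43, 9.55 and 9.42 at P0 and 11.63, 11.72 and 11.63 at P56 (2.19, SE 0.07, limma adjusted p 5.68e-15), and Birc2, a caspase inhibitor, rose by 2.11, SE 0.10. Apaf1, the core of the apoptosome, read 9.17, 9.07 and 9.05 at P0 and 6.97, 7.23 and 7.36 at P56 (−1.91, SE 0.09, limma adjusted p 2.88e-12) and Casp2 9.95, 10.06 and 10.04 at P0 and 7.59, 7.78 and 7.67 at P56 (−2.33, SE 0.08, limma adjusted p 4.84e-14), while Casp8 fell to a dim level. Endog, a nuclease of mitochondria, rose (1.91, SE 0.12).

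Kinases, phosphatases and phosphodiesterases of cyclic nucleotides and calcium divided, with 25 of 48 up and 20 down, 18.8% up and 27.1% down by at least 1. Cyclic GMP signalling serves long-term depression in Purkinje cells. Its phosphodiesterase Pde5a read 8.21, 8.31 and 8.33 at P0 and 12.57, 12.74 and 12.57 at P56 (4.35, SE 0.07, limma adjusted p 3.98e-18) and its kinase Prkg1 8.47, 8.28 and 8.21 at P0 and 10.77, 10.82 and 10.94 at P56 (2.52, SE 0.08, limma adjusted p 6.22e-15). Ppp1r1b, an inhibitor of protein phosphatase 1, read 7.87, 7.69 and 7.79 at P0 and 12.19, 12.21 and 12.20 at P56 (4.41, SE 0.08, limma adjusted p 1.32e-17) and had reached 12.06 at P7. Prkg1 was later, at 9.62, 9.83 and 9.97 before 10.84. The adenylyl cyclase Adcy2 (−3.004, SE 0.09) and the calcium-dependent kinases Camk1g (−2.79, SE 0.11) and Camk2g (−2.39, SE 0.09) fell. In insulin, mTOR and MAP kinase signalling 14 of 37 rose and 17 fell as deposited, 20 and 13 with array medians set to 0, and 5 rose and 9 fell by at least 1. Rheb, the activator of mTOR, rose (1.91, SE 0.07) and the insulin receptor Insr (−2.003, SE 0.08), Pik3r1 (−1.60, SE 0.07) and the phosphatase Dusp4 (−2.49, SE 0.09) fell.

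Receptors for monoamines, acetylcholine, adenosine, purines and opioids were mostly lower, with 29 of 43 down and 5 up (median −0.77), 17 and 3 of them by at least 1. The nicotinic subunits Chrna3 and Chrna4 read 10.90, 10.86 and 10.88 at P0 and 5.99, 6.14 and 6.05 at P56 (−4.82, SE 0.09, limma adjusted p 2.95e-17) and 12.03, 11.98 and 12.02 at P0 and 7.23, 7.36 and 7.41 at P56 (−4.68, SE 0.09, limma adjusted p 2.06e-17), and the muscarinic Chrm3 read 10.55, 10.68 and 10.66 at P0 and 6.44, 6.53 and 7.03 at P56 (−3.97, SE 0.12, limma adjusted p 6.95e-15). Cerebellar interneuron markers fell with them (12 of 12). Against this course, the histamine receptor Hrh3 read 7.54, 7.54 and 7.72 at P0 and 10.30, 10.28 and 10.40 at P56 (2.72, SE 0.07, limma adjusted p 4.08e-16), the serotonin receptor Htr1b 9.85, 9.78 and 9.66 at P0 and 11.50, 11.63 and 11.60 at P56 (1.81, SE 0.08, limma adjusted p 4.37e-13) and the ATP-gated channel P2rx4 rose by 1.82, SE 0.08. Hrh3 and P2rx4 were higher before P56, at 11.08 and 11.44 at P15. Dagla, which makes the endocannabinoid released by Purkinje dendrites, read 9.89, 9.85 and 9.88 at P0 and 12.15, 12.12 and 12.22 at P56 (2.29, SE 0.06, limma adjusted p 5.70e-16) and was at 12.18 at P7. The endocannabinoid and prostaglandin list as a whole had no settled majority, with 7 of 21 up and 9 down as deposited and 11 up and 8 down with array medians set to 0. By at least 1, 3 rose and 3 fell.

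Of 44 Rab GTPase genes, the switches of vesicle traffic, 21 rose and 16 fell (median 0.12), and 20.5% rose by at least 1. Rab28 read 8.69, 8.82 and 8.62 at P0 and 11.57, 11.79 and 11.47 at P56 (2.90, SE 0.10, limma adjusted p 2.26e-14), Rab37 rose by 2.13, SE 0.10 and Rab18 by 2.01, SE 0.09. Rab34 (−1.74, SE 0.07), Rab27b (−1.71, SE 0.09) and Rab33a (−1.63, SE 0.10) fell, although Rab33a was at 11.04 at P15, above both ends. Coats, adaptors and retromer held 16 of 42 genes up and 19 down as deposited, and 24 up and 12 down with array medians set to 0. Of these, 3 rose and 8 fell by at least 1 as deposited. Retromer and its partners return receptors from endosomes, and their genes Vps29 (1.24, SE 0.06), Snx1 (1.12, SE 0.11) and Snx2 (1.13, SE 0.08) rose. The dynamin Dnm2 (−1.71, SE 0.07) and the adaptor Ap3b2 (−1.68, SE 0.07) fell.

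Nutrient and amino acid transporters showed the lowest median of all 41 lists, −1.45: 27 of 35 fell, 6 rose and 22 (62.9%) fell by at least 1. Slc6a11, a GABA transporter of glia and neurons, read 12.73, 12.76 and 12.72 at P0 and 8.29, 7.90 and 8.19 at P56 (−4.61, SE 0.10, limma adjusted p 6.11e-17). Slc1a4, a carrier of serine and alanine, read 11.10, 11.11 and 11.07 at P0 and 7.24, 7.15 and 7.21 at P56 (−3.90, SE 0.07, limma adjusted p 2.60e-17), and Slc1a1, a neuronal glutamate transporter, 11.001, 11.01 and 11.04 at P0 and 7.26, 7.15 and 7.39 at P56 (−3.75, SE 0.08, limma adjusted p 5.57e-17). Astrocytes and endothelial cells use many of these carriers. Of the astrocyte and Bergmann glia markers 7 of 11 fell and 4 rose, and 13 of 13 endothelial and mural markers fell. The transporter list itself holds 2 astrocyte markers and 1 interneuron marker. The 3 largest rises were the mitochondrial glutamate carrier Slc25a22 (1.21, SE 0.07), the vesicle transporter Slc6a17 (1.03, SE 0.07) and the ATP/ADP exchanger Slc25a4 (0.79, SE 0.06).

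Pumps, acid-base and anion transporters included 23 falls and 7 rises among 33 genes (median −0.70), 9 and 2 of them by at least 1. Fxyd6, a small regulator of the sodium pump, read 12.73, 12.71 and 12.72 at P0 and 9.71, 9.58 and 9.65 at P56 (−3.07, SE 0.08, limma adjusted p 6.18e-16). The carbonic anhydrase Car2 read 9.41, 9.45 and 9.24 at P0 and 12.33, 12.26 and 12.22 at P56 (2.90, SE 0.07, limma adjusted p 5.49e-16), and the chloride channel relative Ano3 rose from a dim level (2.92, SE 0.17, and 1.83 in a second probe set). Of 29 HCN, TRP, acid-sensing and gap junction genes 24 fell and 4 rose (median −1.17), with 58.6% down by at least 1. Gjd2, the gap junction protein of electrical synapses, read 10.34, 10.41 and 10.35 at P0 and 6.01, 6.53 and 6.57 at P56 (−3.999, SE 0.13, limma adjusted p 1.18e-14). Panx1, a large-pore channel, read 11.26, 11.10 and 11.12 at P0 and 6.28, 6.95 and 6.80 at P56 (−4.48, SE 0.12, limma adjusted p 2.04e-15). Hcn2, a pacemaker channel, read 9.43, 9.62 and 9.59 at P0 and 11.32, 11.26 and 11.30 at P56 (1.75, SE 0.09, limma adjusted p 1.37e-11) while its relative Hcn3 read 9.66, 9.69 and 9.81 at P0 and 6.92, 7.13 and 7.17 at P56 (−2.65, SE 0.10, limma adjusted p 5.48e-14). Unc80, part of the sodium leak channel that keeps neurons near threshold, rose (1.71, SE 0.06).

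Of 34 genes of neurofilaments, spectrins, ankyrins and the axon initial segment 22 fell and 6 rose (median −0.81), 15 and 2 of them by at least 1. The erythroid-type ankyrin Ank1 read 9.51, 9.63 and 9.68 at P0 and 12.49, 12.45 and 12.35 at P56 (2.82, SE 0.07, limma adjusted p 2.22e-16), and the heavy neurofilament Nefh rose (1.60, SE 0.07). Nes, the filament of stem cells, fell to a dim level, and the adhesion proteins Chl1 (−3.58, SE 0.09) and L1cam (−3.20, SE 0.10) fell.

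Postsynaptic scaffolds moved both ways. Shank2 (2.42, SE 0.07; 2.42 to 3.15 over 3 probe sets), Shank1 (1.54, SE 0.07) and the exchange factor Psd2 (1.87, SE 0.06) rose, whereas Sorbs2 (−2.75, SE 0.09), Slitrk3 (−2.60, SE 0.11) and Magi1 (−2.37, SE 0.07) fell. In all 11 of 38 rose and 20 fell as deposited (median −0.27), and 17 and 17 with array medians set to 0 (median 0.052), while 7 rose and 14 fell by at least 1. Classical cadherins, catenins and integrins held 31 falls and 4 rises among 37 genes (median −1.09), with 56.8% down by at least 1. Cdh13 read 11.83, 11.84 and 11.74 at P0 and 7.87, 8.06 and 8.03 at P56 (−3.82, SE 0.07, limma adjusted p 1.03e-17), Cdh9 9.66, 9.70 and 9.61 at P0 and 5.82, 6.25 and 5.94 at P56 (−3.65, SE 0.11, limma adjusted p 3.39e-15) and Cdh6 11.04, 10.94 and 10.72 at P0 and 7.63, 6.96 and 7.29 at P56 (−3.60, SE 0.13, limma adjusted p 3.84e-14). Cdh18 was the 1 gene of this list that rose by at least 1, with 9.56, 9.67 and 9.44 at P0 and 11.48, 11.51 and 11.61 at P56 (1.98, SE 0.08, limma adjusted p 1.25e-13).

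Of 32 genes of MHC class I and interferon response 10 rose and 18 fell as deposited, and 13 rose and 12 fell with array medians set to 0. By at least 1, 1 rose and 9 fell as deposited. Ifitm2 (−3.26, SE 0.12) and Ifitm3 (−2.93, SE 0.11), near-identical neighbours that short probes may not separate, fell. B2m, the light chain of MHC class I, read 11.53, 11.47 and 11.35 at P0 and 9.70, 9.45 and 9.45 at P56 (−1.92, SE 0.10, limma adjusted p 8.69e-12), and fell beside markers of microglia and vessels. Psmb10, a subunit of the immunoproteasome, rose (1.41, SE 0.09).

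Pairs of related genes were compared within arrays, where a shift of the whole array cancels. Of 19 measured pairs (24 listed) the difference between the changes of both genes passed in 17 (adjusted over the 19 pairs), and in 8 pairs one gene was called higher and the other lower as deposited. With array medians set to 0, Hk1 (−0.093) and Prkg2 (−0.044) were not called and Pdk1 turned to 0.063, so the opposite calls of their pairs ended. The second gene gained on the first in 12 pairs and lost in 5. The elongation factor Eef1a1 read 13.65, 13.62 and 13.62 at P0 and 13.01, 13.003 and 13.02 at P56 and Eef1a2, the form of mature neurons and muscle, 11.70, 11.70 and 11.75 at P0 and 12.995, 12.95 and 12.99 at P56. The second form gained 1.88 (SE 0.06, limma adjusted p 5.53e-15) on the first, whose pseudogenes short probes can read. Ldhb gained 2.22 (SE 0.10, limma adjusted p 2.11e-13) on Ldha, which read 12.30, 12.31 and 12.35 at P0 and 11.01, 11.10 and 11.23 at P56. The pyruvate dehydrogenase kinase Pdk2 gained 1.77 (SE 0.10, limma adjusted p 7.65e-12) on Pdk1. Hk2 gained 1.17 (SE 0.09, limma adjusted p 6.61e-10) on Hk1, from P0 arrays of 5.97 to 6.29.

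The neurofilament Nefh gained 4.35 (SE 0.08, limma adjusted p 2.34e-18) on Vim, the filament of immature cells and glia, which read 13.29, 13.27 and 13.23 at P0 and 10.40, 10.44 and 10.72 at P56. Slc7a8 gained 3.64 (SE 0.10, limma adjusted p 3.33e-16) on Slc7a5, a carrier of large amino acids known from vessels, which read 12.29, 12.30 and 12.28 at P0 and 9.23, 9.13 and 9.34 at P56. Elavl3 gained 2.82 (SE 0.10, limma adjusted p 6.28e-15) on Elavl2, and its own change turned from −0.27 to 0.049 with array medians set to 0. Camk2a gained 1.30 (SE 0.06, limma adjusted p 2.11e-13) on Camk2b, both of them called higher as deposited, although the call of Camk2b ended under quantile normalization (0.086). Among the pairs in which the first gene gained, the change of Prkg2 minus that of Prkg1 was −2.89 (SE 0.08, limma adjusted p 7.55e-16). The same difference was −2.46 (SE 0.14, limma adjusted p 7.22e-12) for the adaptor subunits Ap1s2 minus Ap1s1, −1.98 (SE 0.10, limma adjusted p 1.19e-12) for the glucose transporters Slc2a1 minus Slc2a3 and −1.16 (SE 0.08, limma adjusted p 8.44e-11) for the sodium pump subunits Atp1b3 minus Atp1b1. The difference did not pass for Cers6 and Cers2 at −0.23 (SE 0.12, limma adjusted p 0.0859) or for the synaptic scaffolds Dlg3 and Dlg4 at 0.014 (SE 0.08, limma adjusted p 0.863), whose 95% interval ran from −0.15 to 0.18. The Cers pair passed without P56 replicate 2 (−0.41), and the Dlg pair turned to −0.27 and passed under quantile normalization. The splicing repressor Ptbp2 gained 0.25 (SE 0.10, limma adjusted p 0.0214) on Ptbp1, a call that ended without P0 replicate 2 (0.18) or P56 replicate 3 (0.14).

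**Figure D4:**
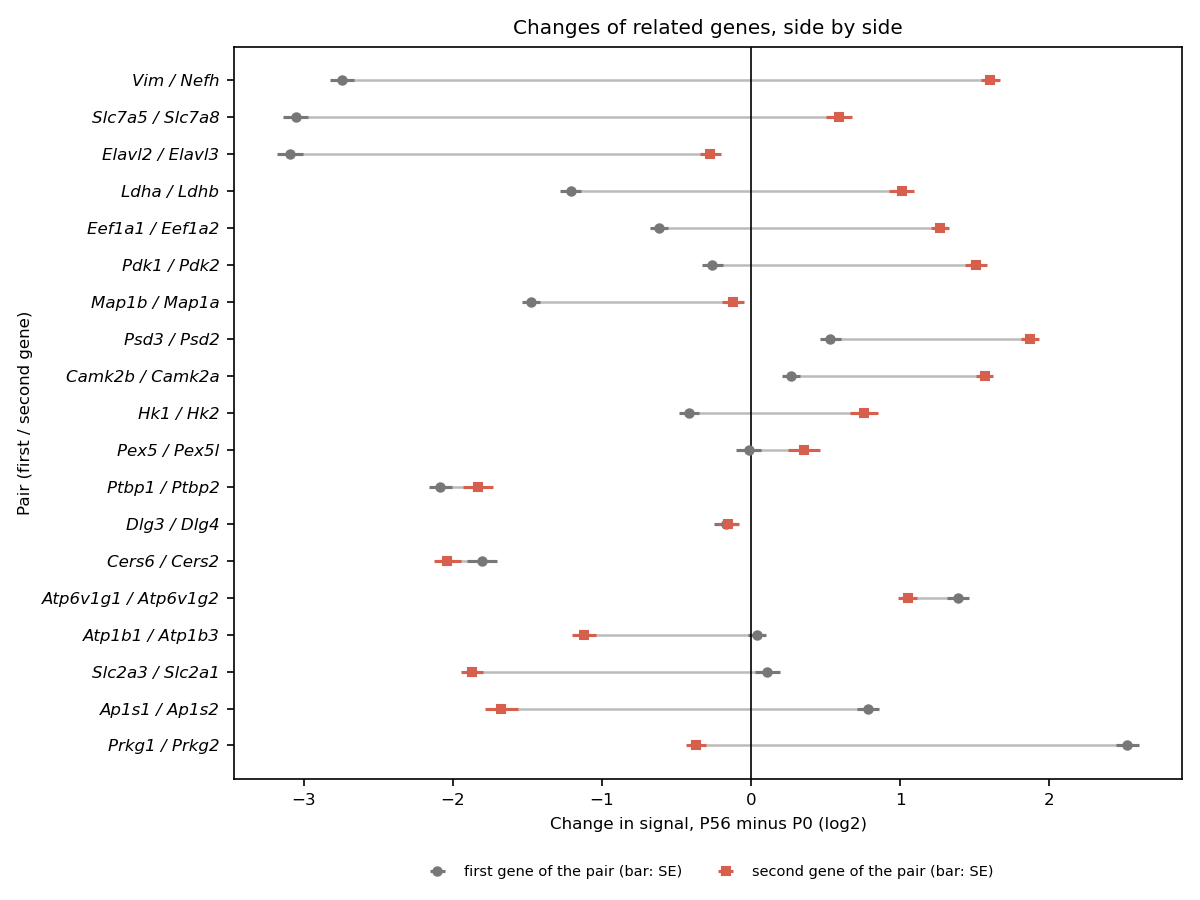
Change in log2 signal from P0 to P56 for both genes of 19 related pairs, first gene as a grey circle and second as an orange square, with the SE of the fit as bars and pairs ordered by the difference. Vim and Nefh lie farthest apart (4.35), and Dlg3 and Dlg4 lie together.

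Below the 15 largest changes, the next 20 in each direction name further genes. Casq2, a calcium store protein known from heart muscle, read 5.43, 5.44 and 5.38 at P0 and 10.09, 10.05 and 10.57 at P56 (4.82, SE 0.11, limma adjusted p 2.20e-16). Casq2 and, further on, Sowahb were dim at P0, so their differences are of the deposited values and the size of the rise is not settled. Grid2ip, a scaffold of the delta glutamate receptor, read 7.18, 7.21 and 7.31 at P0 and 11.98, 11.97 and 11.97 at P56 (4.74, SE 0.06, limma adjusted p 1.06e-19), and Homer3 rose by 4.41. Hapln4, a link protein of the matrix around neurons, read 6.54, 6.21 and 6.48 at P0 and 11.21, 11.27 and 11.46 at P56 (4.90, SE 0.09, limma adjusted p 1.03e-17). The phosphoinositide kinase Pip5k1b read 7.12, 7.37 and 7.17 at P0 and 11.97, 11.97 and 11.98 at P56 (4.75, SE 0.07, limma adjusted p 1.95e-18) and the receptor Gpr63 rose by 4.71. Tuba8, a tubulin, rose by 5.24, the potassium channel subunit Kcng4 by 5.50, the centriole protein Cep76 by 5.12 and the kinase Stk17b by 4.90.

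Some of these rises were of mitochondrial genes. Cox7a1, the heart and muscle form of a cytochrome oxidase subunit, read 6.66, 6.84 and 7.02 at P0 and 11.45, 11.61 and 11.41 at P56 (4.65, SE 0.08, limma adjusted p 1.27e-17). Timm8a1, an import chaperone, read 6.61, 6.43 and 6.57 at P0 and 10.98, 11.18 and 10.89 at P56 (4.48, SE 0.08, limma adjusted p 2.06e-17), and a second probe set rose by 4.75. Both Timm8a1 and the complex I gene Ndufa1 gained more than 1 after P21, from 9.39 and 10.79 to 11.02 and 12.32. Eef1akmt1, which methylates the elongation factor, rose by 4.61, and Plekhd1 (5.14), Sowahb (4.66) and the zinc finger gene Zfp931 (4.70, SE 0.19) rose as well.

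The next falls included the imprinted gene Mest, with 12.22, 12.28 and 12.16 at P0 and 6.69, 7.60 and 7.37 at P56 (−5.003, SE 0.15, limma adjusted p 4.23e-15). Tac1, the gene of substance P, read 9.91, 9.92 and 9.73 at P0 and 4.93, 4.99 and 5.09 at P56 (−4.85, SE 0.18, limma adjusted p 1.01e-13), and Tac1, the synapse organiser Cbln2, Dgkk and Nexmif ended at dim levels, where the size of a fall is likewise not settled. The matrix proteoglycans Vcan and Ncan read 10.88, 10.97 and 10.87 at P0 and 6.07, 6.05 and 5.93 at P56 and 12.60, 12.71 and 12.68 at P0 and 8.01, 7.97 and 8.05 at P56, with changes of −4.89 and −4.65, while the link protein gene Hapln4 rose. Neto1, a partner of kainate receptors, changed by −4.83, and Csmd3 by −4.95, with 7 probe sets between −5.02 and −3.16. Plppr1, of growing neurites (−4.69), the transcriptional cofactor Lmo3 (−4.69), Nt5dc2 (−4.63) and the vesicle calcium sensor Syt5 (−4.62) fell as well. Nt5dc2 fell late, with 11.77 at P7 and 10.08 at P21.

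A comparison of so many called genes also bounds those that hardly moved. Of 8233 genes above the array median at both ages, 526 had a 95% interval for the change within 0.25 of 0 and 2098 within 0.5. The narrowest were Ndufc2 (−0.0016, 95% interval −0.13 to 0.12), the chromatin remodeller Chd3, Jakmip1, Fastk, Edem3, Arel1, the cytoskeletal adducin Add1 and the channel of the outer mitochondrial membrane Vdac1. Ndufc2, of respiratory complex I, read 12.76, 12.78 and 12.78 at P0 and 12.84, 12.74 and 12.75 at P56, but 13.26 on average at P7 and 13.24 at P15. With array medians set to 0 all 8 were called higher, by 0.32 to 0.34, and under quantile normalization Ndufc2 changed by −0.18 and Vdac1 by −0.17, so their flatness depends on the scaling. Fastk was not flat in between, with 11.85 at P15 against 11.04 and 11.04 at the ends.

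Genes that were alike at birth and in the adult can still differ at other ages. Of 4828 genes not called between P0 and P56, 1996 (41.3%) were called by limma's F-test over all ages. Of these, 137 stood at least 1 above both ends at P7, P15 or P21 (44, 51 and 42 with the peak at each) and 13 stood at least 1 below. Pla2g5, a secreted phospholipase, averaged 6.93 at P0, 10.51 at P7, 10.92 at P15, 10.74 at P21 and 7.10 at P56. Arid3c was high at P7 alone, at 9.38, against 7.07 to 7.40 at P0 and P15. Sptb, an erythroid spectrin also found in neurons, and the kinase Stk32a peaked at P21, at 11.73 and 9.41, and returned to 9.63 and 7.48. In the other direction, S1pr1, a receptor for a lipid signal in vessels and astrocytes, averaged 9.50 at P0, 7.97 at P7 and 9.25 at P56, where its arrays spread from 8.76 to 9.62. Sv2c, a vesicle protein, was low at P7 and P15 (9.10 and 9.01) and back at 10.38 by P21. Bex4 was lowest at P21, at 6.18 with an SD of 0.49 (n = 3). Being alike at the ends rested on single arrays for some: Pla2g5 was called without P0 replicate 3 (0.23) or P56 replicate 3 (0.24), Arid3c without P56 replicate 3 (−0.21), S1pr1 (−0.44) and Tmem232 (0.23) without P56 replicate 1, and Samd5 without P0 replicate 3 (−0.23). It also depended on the scaling. Under quantile normalization Pla2g5 (0.41), Stk32a (0.35), Tmem232 (0.43) and Fkbp7 (0.29) were called between the ends. With array medians set to 0 these were called again (0.49, 0.34, 0.45 and 0.27). Under that scaling Ephx3 (0.35), Sec24b (0.26) and Arid3c (0.18) were called too. The changes of Fkbp7, Sec24b and Arid3c were negative as deposited.

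**Figure D5:**
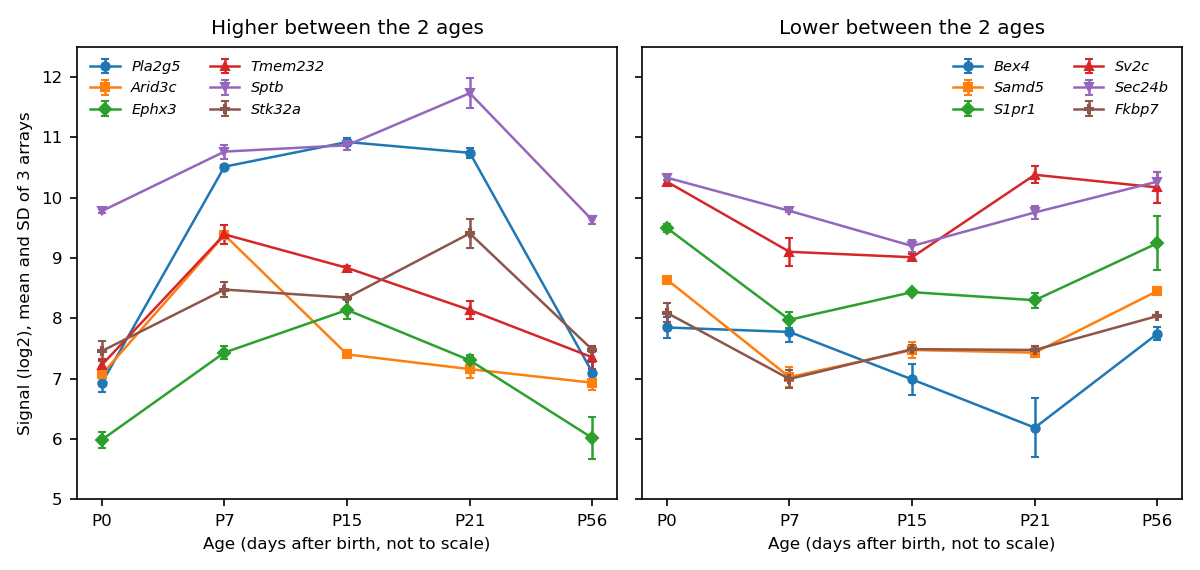
Mean log2 signal with SD of 3 arrays at each of the 5 ages, for 6 genes that were higher (left) and 6 that were lower (right) between P0 and P56 but not called between those 2 ages; the ages are evenly spaced, not to scale. Pla2g5 stands 3.83 above the higher of its ends at P15, and Arid3c peaks at P7.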

How the data were processed

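Per the labels' protocols, RNA bound to tagged ribosomes was amplified with an Affymetrix whole-transcript kit and labelled with biotin. The authors deposited log2 values per probe set. Affymetrix Power Tools is named in the submitters' processing notes, while the sources used here do not give its version, the summarisation, the background correction or the base of the log, and base 2 was taken from the range of the values. Values were used as deposited. Arrays have no read depth, and 3 arrays per age limit the precision. Neither scan date nor batch is known for any array, so age and batch cannot be told apart.

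Changes were fitted with limma 3.58.1 in R 4.3.3 to all 15 arrays with a mean per age (10 residual degrees of freedom, 6.5 from the prior). The contrast P56 minus P0 was two-sided, with Benjamini-Hochberg adjustment over 22092 probe sets. Pairs of genes were fitted on the per-array difference of their values. An exact permutation test of 3 against 3 arrays cannot go below 0.1, so p-values depend on the spread that limma pools over arrays and probe sets. Errors are the SE of the fit unless given as SD. The platform annotation of 2016 gave 1 symbol to 20996 probe sets, several to 91, and did not list 1005. The probe set with the highest mean stood for its gene. A gene was dim, or not shown to be above background, where all 3 arrays of an age lay under their own lower quartile (5.93 to 5.996 at P0, 5.96 to 5.99 at P56). Where only some arrays did, as for Cdh9, Vcan, Cp and Slc40a1 at P56, the gene was not counted as dim. The size of such a change is not settled either.

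The comparison, the lists and the pairs were chosen with earlier results of these data known, and 1 list is not reported here. Genes were named by rule: up to 3 called rises and 3 called falls per list without overlap of arrays, all genes of the pairs, ranks 16 to 35 of the largest rises and falls, the 8 narrowest intervals, 6 genes each higher and lower between the ends, and Pcp2 and Rpl10a. Other members named with values, such as clock genes, and the microRNA genes were chosen after their values were seen. The ranks held called genes without overlap of arrays and left out predicted and unnamed genes, microRNA, small nucleolar RNA and olfactory or vomeronasal receptor genes. Promoter and microRNA sequences are from RefSeq tables of GRCm38.p6. On simulated data of 22092 genes, 18 to 20% of shifts of 0.25, 78 to 86% of 0.5, 98 to 100% of 1 and 100% of 2 were called, with 9 to 11 false calls. The simulation shifted only a small part of the genes, with independent normal noise, whereas 75.4% of probe sets were called in the data. Its shares and false calls therefore do not carry over to the calls reported here. The fit had no replicate block. The alternatives tried were array medians set to 0, quantile normalization, the 6 arrays alone, the replicate number as a block, a trended and robust prior, array weights, leaving out the dimmest 50% of probe sets, averaging a gene's probe sets, other minimum changes and leaving out each array. Tables and plots were made in Python 3.11.15 with pandas 2.3.3 and matplotlib 3.10.9.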

Additional observations from a re-analysis of the deposited data

How the results depend on the processing

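Of 375 named genes, 343 kept their direction and call under all of the 14 settings in which they were tested. With array medians set to 0, 13631 probe sets were higher and 70.2% of those called were higher, against 53.2% as deposited. The same setting left 71 genes higher between the ends, and called lower 13 genes of fatty acids, 16 of the core spliceosome, 6 tRNA synthetases, 16 of DNA repair and 12 of coats. It also called 7 of 12 microglia markers lower, against 11 as deposited. It reversed Arel1 (0.32), Arid3c (0.18), Csnk1d (0.094), Dlg4 (0.17), Elavl3 (0.049), Fastk (0.32), Fkbp7 (0.27), Map1a (0.20), Ndufc2 (0.32), Pdk1 (0.063), Pex5 (0.31), Rpl10a (0.17) and Sec24b (0.26). Quantile normalization left 87 genes higher between the ends, reversed Fkbp7 (0.29), Pex5 (0.23), Vdac1 (−0.17) and the pair Dlg3 and Dlg4 (−0.27), and ended the call of Ptbp2 against Ptbp1 (0.16), as did the 6 arrays alone (0.25). The cause was not tested.

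Leaving out the dimmest 50% of probe sets, so that fewer were tested, gave 4708 higher, 4982 lower and 2299 lower by at least 1. Of those called 48.6% were higher, and the background shares over all probe sets do not apply to this brighter set. Called lower were then 10 of 21 genes of metals still tested, 15 of 25 of DNA repair, 18 of 25 of Wnt, 13 of 20 of Notch, 17 of 28 of BMP, 10 of 14 receptors and 7 of 11 of MHC. Called higher in the same lists, in that order, were 10, 7, 3, 5, 10, 4 and 4. Of 21 cell death genes 9 were higher and 10 lower, so neither metals nor cell death leaned away from the split over all called probe sets by much. Of the endothelial and mural markers 2 were still tested, and of the dividing cell markers 2, all called lower. No microglia or red blood cell marker was still tested. These lists are shorter, so a smaller count is not by itself a lost call. A minimum change of 2 left 712 rises and 1149 falls. A minimum departure of 0.5 gave 539 genes higher and 89 lower between the ends. Without each array in turn, 8011 to 8679 probe sets were higher and 7526 to 7717 lower. The Ptbp difference ran from 0.14 to 0.34, losing its call without P0 replicate 2 (0.18) or P56 replicate 3 (0.14), and the Cers difference from −0.41 to −0.12. With a replicate block, 8822 probe sets were higher and 7797 lower, no list count moved by over 1.5 times and no call of a pair changed, while same-numbered arrays did not deviate together (correlations of 0.024, −0.0063 and −0.044), so the numbers are not taken to pair them. Signal over background is not given. A change of 0.25 was mostly missed in simulation, where few genes were shifted, so that share does not carry over to these data.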
